A study of Mus musculus with 11 samples.

Results

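Peroxiredoxins and antioxidant enzymes were measured by RNA-seq in single mouse embryos with and without *Prdm10*. The set was chosen by gene symbol and held 10 genes of the 54146 in the expression tables, namely the 6 peroxiredoxins *Prdx1* to *Prdx6*, the thioredoxin gene *Txn1*, the superoxide dismutase genes *Sod1* and *Sod2*, and the catalase gene *Cat*. The set was proposed with the difference between mutant and control embryos already known, so for these 10 genes that difference is given below as a description, without a p-value.

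The 11 embryos were C57BL/6 embryos at the 8-cell stage, collected at E2.5 from the oviducts of naturally mated *Prdm10*Δ/+ females. The 6 controls were *Prdm10* WT/HET (+/+ or Δ/+, which the labels do not separate), and the 5 mutants were *Prdm10* KO (Δ/Δ). The Δ allele, made with an ACTB-Cre line, lacks exon 5, whose loss shifts the reading frame, and per the study's methods each embryo's group was called by qRT-PCR for exon 5 on the same cDNA that was sequenced. Batch 1, amplified with 16 PCR cycles, held 3 controls and 2 mutants. Batch 2, amplified with 13 cycles, held 3 of each. Per the study's methods the batches were also collected and processed separately, so a batch difference cannot be assigned to the PCR cycles. Each library was 1 embryo. Nothing in the labels says which embryos were littermates, so the spread between embryos is not separated from that between litters.

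Peroxiredoxins are enzymes that reduce hydrogen peroxide through a reactive cysteine. Most of them are reset by thioredoxin, which draws its electrons from NADPH. Superoxide dismutases convert superoxide to hydrogen peroxide, and catalase breaks hydrogen peroxide down without thioredoxin. PRDM10 is a zinc finger protein that binds DNA.

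Library depth ranged from 3534735 expected counts in control replicate 2 to 8265840 in mutant replicate 2. *Prdm10* itself averaged 16.5 ± 4.62 TPM in controls (SD, n = 6) and 6.66 ± 1.47 TPM in mutants (SD, n = 5), and the groups did not overlap in TPM. Because groups were assigned from a *Prdm10* exon in the same cDNA, this is a check of the labels and no test is read from it. In normalized counts (the expected count rounded and scaled by library) *Prdm10* averaged 236 ± 85.2 in controls and 151 ± 39.4 in mutants and the groups overlapped, with 2 of 5 mutants below every control. TPM also divides by the effective length of *Prdm10*, which averaged 3011 ± 334 bases in controls (SD, n = 6) and 4746 ± 326 bases in mutants (SD, n = 5). All 8 markers of the 8-cell embryo were detected, with a summed level of 5007 to 6328 TPM in controls and 5184 to 6043 TPM in mutants, most of it from *Dppa3*. Of these markers *Klf5* was at 80.2 to 122.6 TPM in controls and 151 to 201 TPM in mutants, so its groups did not overlap. Some markers of other cells were detected. Over the erythroid markers, of cells in which PRDX2 and catalase are abundant, the summed level was 1.71 to 32.8 TPM in controls and 2.05 to 9.55 TPM in mutants, and *Hbb-bt* was listed at 0 in every embryo. Over 4 leukocyte markers it was 4.79 to 129 TPM in controls and 7.06 to 44.5 TPM in mutants, over 7 cumulus and granulosa markers 21.6 to 80.9 TPM and 19.4 to 74.2 TPM, with *Foxl2* and *Has2* at 0, and over 5 oviduct markers 36.9 to 74.3 TPM and 32.5 to 54.0 TPM. In controls nearly all of the cumulus and granulosa sum came from *Amhr2* alone, and most of the oviduct sum from *Epcam*. The highest of these markers of other cells were *Lyz2*, at 121 TPM in control replicate 1, *Amhr2*, at 19.3 to 80.9 TPM, and *Epcam*, at 22.1 to 54.4 TPM, which is as high as *Prdx2*, *Sod2* and *Txn1* in these embryos. Their part in the results was not tested. Since these are whole-embryo libraries, fewer expressing cells and less RNA per cell cannot be told apart.

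In control embryos the set covered a wide range of levels. The level is given in TPM, which is per unit of transcript length and so can be compared between genes. *Prdx1*, which encodes a cytosolic peroxiredoxin, was highest at 413 ± 97.3 TPM (SD, n = 6 controls throughout this paragraph) and ranked 392 among 10489 genes with a mean normalized count above 10. *Prdx6*, encoding a peroxiredoxin with a single active cysteine that is reset by glutathione, followed at 273 ± 148 TPM. *Sod1*, which encodes the cytosolic copper-zinc superoxide dismutase, averaged 185 ± 50.5 TPM. *Prdx5*, whose product is found in mitochondria, peroxisomes and cytosol, averaged 138 ± 24.3 TPM. *Prdx3*, encoding a mitochondrial peroxiredoxin, averaged 108 ± 13.3 TPM, and *Prdx4*, encoding a peroxiredoxin of the secretory pathway, 104 ± 26.3 TPM. *Sod2*, which encodes the mitochondrial manganese superoxide dismutase, averaged 56.7 ± 21.0 TPM. *Prdx2*, encoding a second cytosolic peroxiredoxin, was the lowest of its family at 44.3 ± 18.4 TPM and ranked 2617. *Txn1*, encoding cytosolic thioredoxin, averaged 36.8 ± 16.5 TPM. *Cat*, encoding peroxisomal catalase, averaged 0.948 ± 1.49 TPM and ranked 10051.

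Most neighbors in this order could not be separated by their spread. Of the 9 steps from one gene to the next, only that from *Txn1* to *Cat* was larger than the sum of the SDs of the pair. The order held in 6 of 6 control embryos for *Prdx4* above *Sod2* and for *Txn1* above *Cat*, but in 3 of 6 for *Prdx3* above *Prdx4* and in 4 of 6 for *Sod2* above *Prdx2*. *Cat* was at 0 TPM in 2 controls and reached 3.84 TPM in control replicate 2, the highest of the group.

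**Figure D1:**
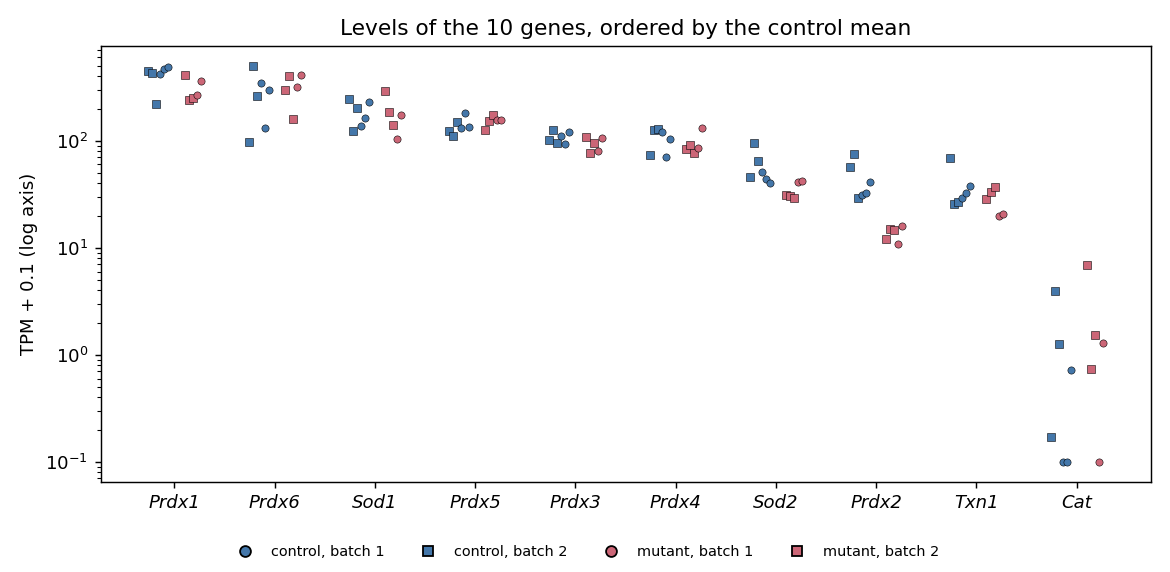
TPM of the 10 genes in each of 11 embryos on a log axis, with 0.1 added so that zeros can be drawn. Genes are ordered by their mean in controls, each point is 1 embryo, blue marks controls, red marks mutants, circles mark batch 1 and squares mark batch 2. The control means run from 413 TPM for *Prdx1* to 0.948 TPM for *Cat*, and *Prdx2* is the gene whose mutant points all lie below its control points.

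*Prdx2* was the member with the largest fall in mutants. Values between embryos are compared here as normalized counts, which are RSEM expected counts rounded to whole numbers and divided by the DESeq2 size factor of the library. *Prdx2* ranged from 142 to 341 normalized counts in controls, with a median of 198. The 5 mutants had 50.6, 75.5 and 58.5 normalized counts in batch 2 and 37.9 and 82.8 in batch 1. Every mutant was thus below every control, in each batch and over both.

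The group means of *Prdx2* were 218 ± 74.1 normalized counts in controls (SD, n = 6) and 61.0 ± 18.3 in mutants (SD, n = 5). In the DESeq2 fit with a batch term, the log2 fold change of mutant over control was -1.84 ± 0.28 (standard error), with a 95% interval of -2.40 to -1.29, so the level in controls was 3.59 times that in mutants. *Prdx2* was the only one of the 10 genes past the study's threshold (adjusted p under 0.05 and a mean normalized count above 10), in the DESeq2 fit as in the edgeR fit. Over all 10448 genes tested, 0.881% were called lower and 0.565% higher. Since *Prdx2* entered the set with this contrast known, nothing is read from the count against that background.

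The difference was seen in both batches. The log2 ratio of mean normalized counts of *Prdx2* was -1.54 in batch 1, where the 3 controls had 142, 166 and 218 normalized counts, and -2.09 in batch 2, where the 3 controls had 266, 341 and 178. The interaction of batch and group was 0.54 ± 0.58 on the log2 scale (standard error, batch 1 minus batch 2), and ran from -0.13 when mutant replicate 5 was omitted to 1.00 when mutant replicate 4 was. It is the difference of the within-batch contrasts known when the genes were chosen, so it is given for the members without a test. For this gene the controls of batch 2 were spread most widely. The log2 fold change of *Prdx2* was -1.70 without control replicate 2, the highest and also the shallowest library. For *Prdx2* the call was absent with batch 1 alone and in limma on log2(TPM + 0.1).

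**Figure D2:**
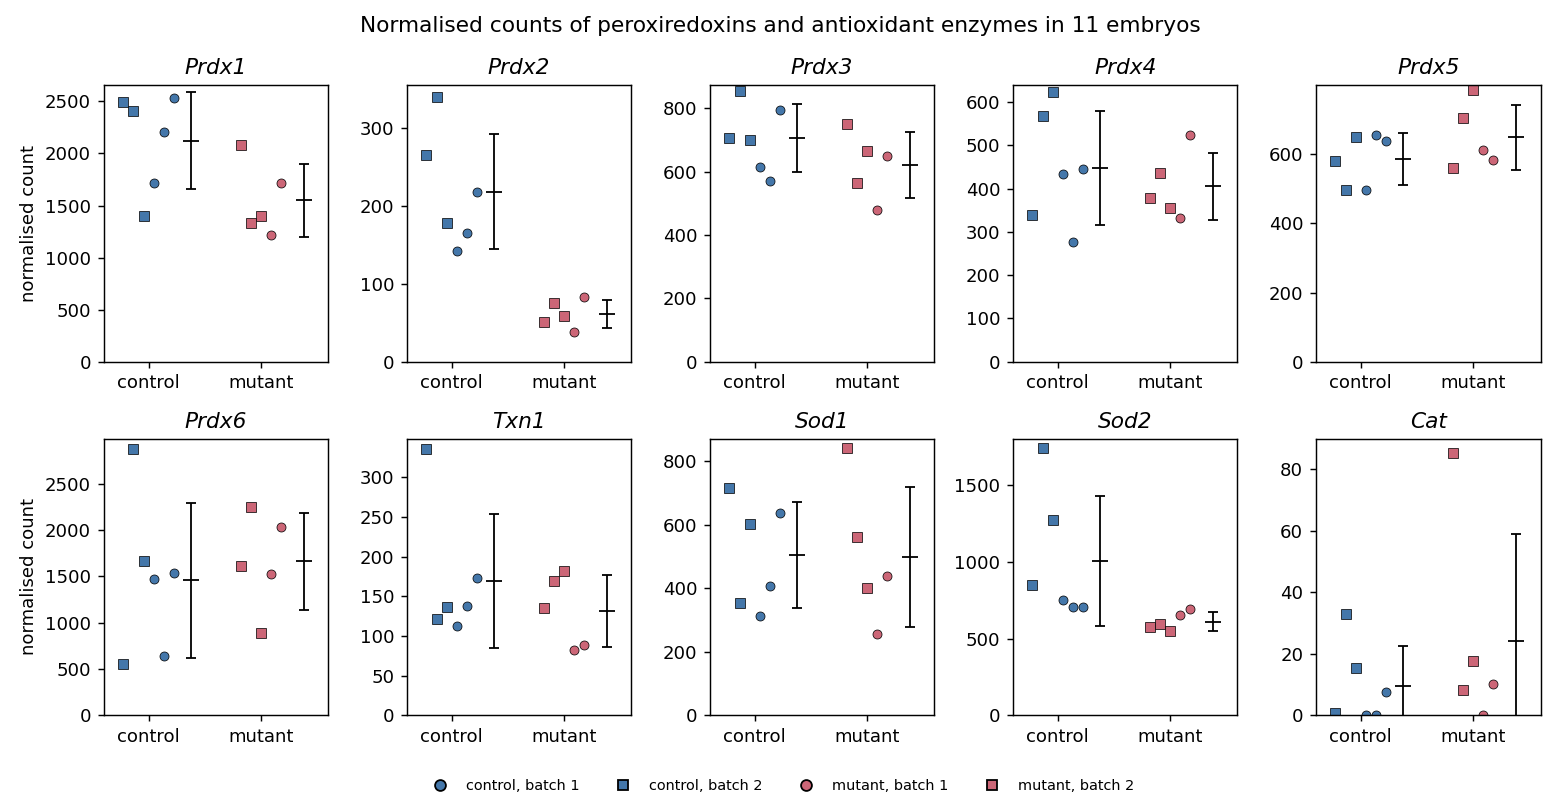
Normalized counts of each gene in each of 11 embryos, 1 panel per gene on its own linear axis starting at 0. Points are embryos, with batch 1 as circles and batch 2 as squares, and the horizontal mark and bar beside each group give its mean and SD (the lower part of the bar is not drawn below 0). *Prdx2* and *Sod2* are the 2 genes in which all 5 mutants lie below all 6 controls.

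None of its paralogs was past the threshold. Relative to the median log2 fold change of the 5 other peroxiredoxins, which was -0.14, that of *Prdx2* was -1.70, and the median over all 10448 genes tested was -0.0012. *Prdx1*, the closest in role, had a log2 fold change of -0.46 ± 0.20 (standard error). Its controls ran from 1399 to 2530 normalized counts with a median of 2304, and its mutants had 2079.9, 1336, 1401, 1217 and 1714, so the groups overlapped, with 2 mutants below every control. *Prdx3* had a log2 fold change of -0.21 ± 0.16 and *Prdx4* of -0.14 ± 0.23. *Prdx5* had 0.14 ± 0.16 and *Prdx6* 0.19 ± 0.45.

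The paralogs differed in how much they varied between embryos. Among controls the coefficient of variation of normalized counts was 12.6% for *Prdx5* and 15.1% for *Prdx3*. It was 57.7% for *Prdx6*, whose controls ran from 553 normalized counts in control replicate 1 to 2870.3 in control replicate 2. The log2 fold change of *Prdx6* was 0.54 in batch 1 and -0.10 in batch 2, and that of *Prdx4* was 0.15 and -0.39, as log2 ratios of mean normalized counts. Neither gene thus kept one direction over the batches.

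As a share of the family, *Prdx2* was small in both groups. It made up 2.68% to 6.35% of the summed peroxiredoxin TPM in controls, with a median of 3.38%, and 1.16%, 1.53%, 1.91%, 1.19% and 1.34% in mutants 1 to 5. The summed TPM of the 5 other peroxiredoxins was 1035 ± 182 in controls (SD, n = 6) and 963 ± 152 in mutants (SD, n = 5), and the groups overlapped. *Prdx1* gave the largest mean share of the family in controls, 38.6% ± 9.61 (SD, n = 6), and *Prdx6* in mutants, 32.1% ± 7.70 (SD, n = 5), against 31.2% ± 5.44 for *Prdx1*, a gap smaller than either SD.

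**Figure D3:**
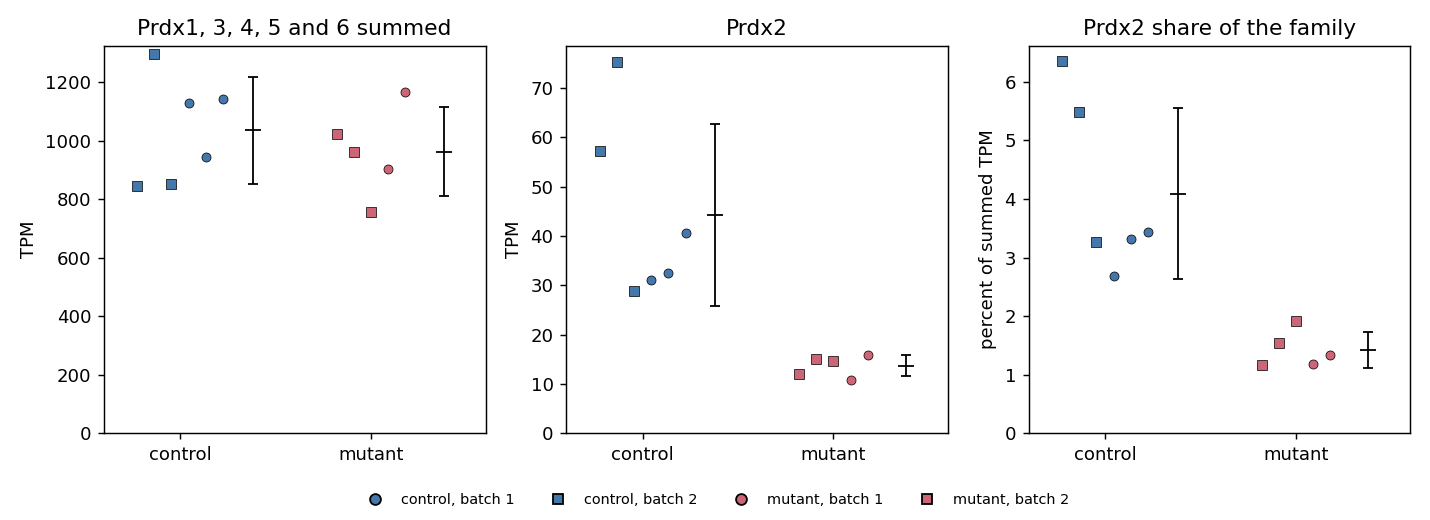
From left to right, the summed TPM of *Prdx1*, *Prdx3*, *Prdx4*, *Prdx5* and *Prdx6*, the TPM of *Prdx2*, and *Prdx2* as a percent of the summed TPM of all 6 peroxiredoxins, in each of 11 embryos. Points are embryos with batch 1 as circles and batch 2 as squares, the mark and bar give the mean and SD, and axes start at 0. The *Prdx2* points of controls (28.9 to 75.3 TPM) and mutants (10.9 to 15.8 TPM) do not overlap, whereas those of the other 5 genes summed do.

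*Sod2* was the second gene whose groups did not overlap in normalized counts. Controls ran from 707 to 1746 normalized counts with a median of 799, and the mutants had 574, 593 and 548 in batch 2 and 654 and 691 in batch 1. Over all genes tested, every mutant was below every control in 0.632%. The log2 fold change of *Sod2* was -0.69 ± 0.23 (standard error), with a 95% interval of -1.14 to -0.24. *Sod2* fell short of the threshold, but was past it in a fit of batch 2 alone, which called 48 genes over all genes. This contrast was known when the genes were chosen, so nothing is read from the interval or the calls. On the TPM scale the groups overlapped, with 3 of 5 mutants (29.1 to 31.1 TPM) below every control and those of batch 1 (41.3 and 42.1 TPM) above the lowest control (40.1 TPM).

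The difference in *Sod2* lay mainly in batch 2. The log2 ratio of mean normalized counts was -1.17 in batch 2, where the 3 controls had 848, 1746 and 1277 normalized counts, and -0.10 in batch 1, where they had 750.5, 709 and 707. The interaction of batch and group was 1.07 ± 0.38 on the log2 scale (standard error, batch 1 minus batch 2). Without control replicate 2, the highest control, the interaction was 0.79. The log2 fold change of *Sod2* over both batches was then -0.50, against -0.69 with all embryos. Over all genes tested, 0.0573% were called for this interaction. None of the 10 members was, except *Sod2* when control replicate 1 was left out, and nothing is read from these counts. The controls themselves differed by batch, with means of 722 normalized counts in batch 1 and 1291 in batch 2. *Sod2* was the 1 member called for batch in a fit of the controls alone. That fit called 1498 genes over all genes, and nothing is read from the 1 member.

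*Sod1* and *Txn1* overlapped between groups. *Sod1* had a log2 fold change of -0.11 ± 0.27 (standard error), with controls from 312 to 716 normalized counts and mutants from 255 to 843. By log2 ratio of mean normalized counts, *Sod1* had -0.39 in batch 1 but 0.11 in batch 2. Omitting control replicate 6 moved the fitted log2 fold change of *Sod1* to 0.04, and omitting mutant replicate 4 moved it to 0.05. *Txn1* had -0.48 ± 0.29, with controls from 113 to 336 normalized counts, a median of 137, and mutants at 136, 169, 181, 81.9 and 89.0. The mutants of *Txn1* in batch 2 lay within the range of controls, whereas those of batch 1 lay below it. The highest *Txn1* value was in control replicate 1, without which the log2 fold change was -0.19.

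*Cat* was close to absent. It had 0.828, 33.0 and 15.5 normalized counts in the controls of batch 2 and 0, 0 and 7.44 in those of batch 1, and 85.3, 8.38, 17.6, 0 and 10.4 in mutants 1 to 5. Its log2 fold change was 1.12 ± 1.06 (standard error), and ran from 0.34 without mutant replicate 1, the highest library, to 2.15 without control replicate 6.

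**Figure D4:**
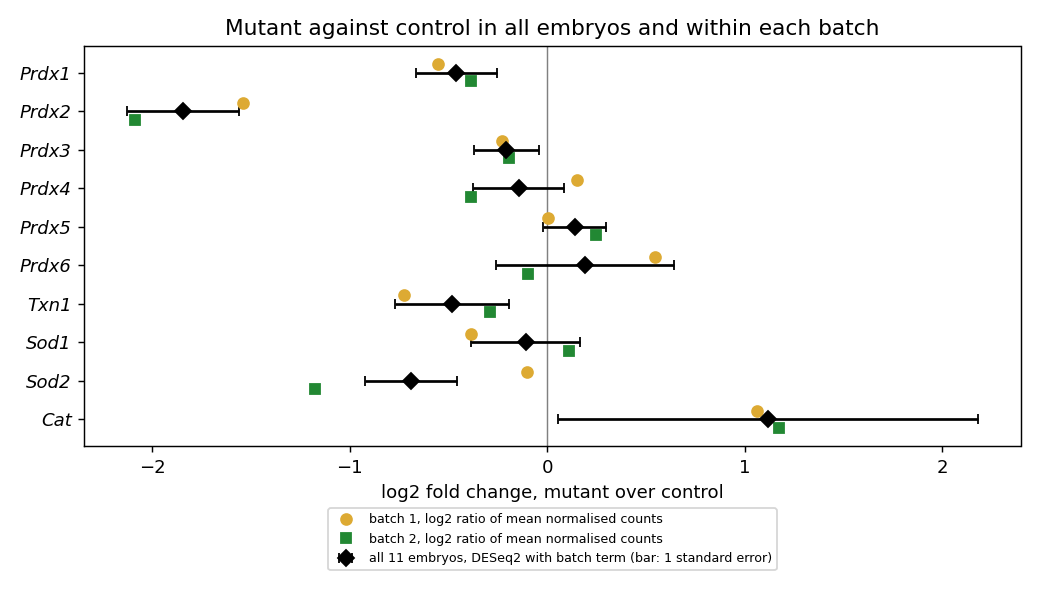
Log2 fold change of mutant over control for each of the 10 genes. Black diamonds give the DESeq2 fit over 11 embryos with a batch term, with bars of 1 standard error, yellow circles the log2 ratio of mean normalized counts in batch 1 (3 controls, 2 mutants) and green squares that in batch 2 (3 controls, 3 mutants). *Prdx2* lies furthest to the left in the fit and in both batches, and *Sod2* shows the widest gap between batches, from -0.10 to -1.17.

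Over the 10 genes, 7 had a log2 fold change below 0 and the median was -0.18, and without *Prdx2* the median of the other 9 was -0.14. The remaining differences between embryos that the choice of genes did not use were tested over all genes. For batch, 27.9% of all genes tested were called, and 1 of the 10 members was, *Cat*. *Cat* passed the filter on the mean count only through batch 2, where it was high, so its log2 fold change of -2.74 ± 1.08 (standard error, batch 1 minus batch 2) is a description and nothing is read from the count. This value ran from -4.04 to -2.12 with 1 embryo left out, and the call was lost in 10 of 15 alternatives, a fit of the controls alone among them. For *Txn1* the batch difference was -0.68 ± 0.29 (DESeq2, adjusted p = 0.0716), and it was called when control replicate 2, 3 or 6 was left out.

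The effective length that RSEM gives each gene depends on which isoforms the reads were assigned to. It was tested with limma over 7466 genes, of which 0% were called (407 at an unadjusted p under 0.05). *Prdx2* had the largest change among the members tested, from 1084 ± 119 bases in controls (SD, n = 6) to 926 ± 163 bases in mutants (SD, n = 5), a log2 difference of -0.22 ± 0.11 (standard error; limma, adjusted p = 0.933). Of those tested *Prdx1* came next, with a log2 difference of -0.05 ± 0.04 (limma, adjusted p = 0.976). *Cat*, whose counts were too low for this test, had 2105 ± 478 bases in controls and 2228 ± 411 bases in mutants. With the effective length as an offset in DESeq2, the log2 fold change of *Prdx2* was -1.67.

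*Prdx2* and *Sod2* were also the 2 members on the study's list of genes with PRDM10 bound in mouse embryonic stem cells, of which 627 were in the tables. Per the study's methods, a gene was listed for a peak in or near its body, so the peak need not be at its start. The starts of *Prdx2* and *Sod2* are shown because the probe with which the study tested PRDM10 binding can be compared with them. In the wild-type gel shift probe and its mutated form, capitals mark the 8 bases that were changed, between positions 10 and 20 of 28 bases counted from the 5′ end.
WT: ctggcacagTGGTcgcGCCCggcccgcc
MUT: ctggcacagCAACcgcATTTggcccgcc

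The 250 bases before each RefSeq start (GRCm38.p6, both on the plus strand) follow, *Prdx2* at chr8:84969372-84969621 and *Sod2* at chr17:13007589-13007838, with capitals in *Sod2* for the match described next.
*Prdx2*: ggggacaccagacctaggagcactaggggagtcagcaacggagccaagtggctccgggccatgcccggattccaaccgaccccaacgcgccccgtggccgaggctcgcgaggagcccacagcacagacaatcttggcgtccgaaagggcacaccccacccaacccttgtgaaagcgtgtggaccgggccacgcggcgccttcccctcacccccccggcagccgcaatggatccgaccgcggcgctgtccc
*Sod2*: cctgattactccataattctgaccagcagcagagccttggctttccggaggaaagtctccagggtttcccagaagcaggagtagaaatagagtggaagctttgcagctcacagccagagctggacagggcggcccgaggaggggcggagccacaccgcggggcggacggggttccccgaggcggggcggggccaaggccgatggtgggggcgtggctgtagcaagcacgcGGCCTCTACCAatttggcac

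The window before the start held 69.2% G and C in *Prdx2* and 63.6% in *Sod2*, against a median of 52.4% over 32851 promoters. All 9 member windows were above that median, from 55.6% to 69.2%, and those of *Sod1* (66.4%) and *Txn1* (64.0%), which are not on the list of bound genes, were above *Sod2*. Both strands were searched from 250 bases before to 50 bases after each start, and 9 of the 10 members had a promoter entry. The whole changed stretch, TGGTCGCGCCC, was in 4 promoters (0.0122%), and the changed letters alone, TGGTNNNGCCC, were in 1.45% of all promoters and 10.2% of those of bound genes. Neither was in a member's window. A looser form that keeps the first 4 and last 2 letters, TGGTNNNNNCC, contains both of these and was added after the data were seen. It was in 13.8% of all promoters, in 34.5% of those of bound genes, and in 2 of the 9 member windows, which were *Prdx2* and *Sod2*.

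The matches, in capitals with flanking bases, lie just after the *Prdx2* start (28 to 38 bases in, plus strand, chr8:84969642-84969666 as shown) and just before the *Sod2* start (20 to 10 bases upstream, on the minus strand, chr17:13007812-13007836 as shown).
*Prdx2*: cctggtgTGGTTTGGGCCacgcata
*Sod2*: agcacgcGGCCTCTACCAatttggc

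These letters were found by a search and are not shown to be sites. Whether PRDM10 sits on them was not tested here.

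Neither gene next to *Prdx2* was called. *Rnaseh2a*, which encodes the catalytic subunit of ribonuclease H2, lies head to head with *Prdx2* on the opposite strand (chr8:84956610-84969767) with the starts of both genes overlapping by 181 bases, and it is also on the list of bound genes. It had 187 ± 35.0 normalized counts in controls (SD, n = 6) and 185 ± 20.5 in mutants (SD, n = 5), with a log2 fold change of -0.02 ± 0.20 (standard error; DESeq2, adjusted p = 0.988). On the other side *Junb*, an AP-1 transcription factor gene, overlaps the end of *Prdx2* by 351 bases on the opposite strand. *Junb* is on the list of bound genes too. It had 7.93 ± 7.48 normalized counts in controls and 13.3 ± 13.4 in mutants, and the difference did not pass the test (DESeq2, adjusted p = 0.806). The nearest genes to *Sod2* with a mean normalized count above 10 were *Wtap*, an RNA methylation cofactor gene 12677 bases away, at 0.06 ± 0.15, and *Afdn*, 720476 bases away, at 0.21 ± 0.27 as log2 fold changes (DESeq2, adjusted p = 0.939 and 0.849).

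Some reads could have belonged to more than one gene. Of the 31-base stretches in *Prdx2* transcripts, 16.5% also occurred in another gene, and the sharing genes with a mean count above 10 were *Junb* and *Rnaseh2a*, through the overlaps, since the protocol did not mark strand. The processed pseudogenes *Tdpx-ps1*, *Prdx2-rs3* and *Gm5225* had mean counts of 0.116, 0 and 0. *Txn1* shared stretches only with the pseudogene *Txn-ps1*, and *Sod1* with *Gm8566* and *Gm8238*, of which *Gm8566* had a mean count of 10.5. *Prdx5* shared 16.9% of its stretches with *Trmt112*, which overlaps it on the opposite strand and had a mean count of 644. *Sod2* shared 26.7% of its stretches, mostly with a gene without a symbol and a measured value here (21.96%) and with *Rps6ka2* (20.1%), which had a mean count of 5. *Prdx1* shared 15.4%, mostly with the processed pseudogenes *Gm21399* and *Gm7204*, which had mean counts of 1.89 and 2.61. In RSEM's own estimate, the uncertainty from dividing shared reads was at most 2.19% of a member's count.

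The genes whose pattern was most like that of *Prdx2*, by Pearson correlation of log2(TPM + 1) over 11 embryos among 10477 other genes, were *Bccip* (r = 0.92), *Phf11a* (0.91), *Prdm10* itself (0.90), *Bzw2* (0.89) and *Selenow* (0.89). The embryos fall into the 2 groups, so these values largely restate a difference between groups. Within the 6 controls the correlations with *Prdx2* were 0.77, 0.94, 0.73, 0.81 and 0.30. All but *Phf11a* are on the list of bound genes, as are 627 of the 54146 genes in the tables. The share among the 10477 genes compared was not counted, so nothing is read from this. *Selenow*, which encodes a small selenium-containing protein of redox metabolism, averaged 214 ± 82.2 TPM in controls (SD, n = 6) and 14.3 ± 4.98 TPM in mutants (SD, n = 5). Among the members, *Sod2* (r = 0.73) and *Prdx3* (0.61) were most like *Prdx2*, and *Prdx5* was the least (-0.56).

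Other genes of the pathway were tested between mutants and controls. Of 42 listed genes of the thioredoxin and glutathione systems, superoxide removal, methionine sulfoxide reduction, the NRF2 axis and NADPH supply, 30 could be tested, and 0 were called in either direction by DESeq2 or edgeR. With 0.881% of all genes called lower and 0.565% higher, a count of 0 in 30 genes is near the background. Of the 30, 12 had a log2 fold change below 0 and 18 above, with a median of 0.06. The highest-expressed of them were *Gpx4*, *Gpx1* and *Glrx3*. *Gpx4*, encoding the glutathione peroxidase that reduces lipid hydroperoxides, had a log2 fold change of 0.14 ± 0.20 (standard error; DESeq2, adjusted p = 0.875). *Gpx1*, encoding the main cytosolic glutathione peroxidase, had -0.07 ± 0.20 (adjusted p = 0.951), and *Glrx3*, a glutaredoxin gene, 0.11 ± 0.18 (adjusted p = 0.906).

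At an unadjusted p under 0.05 there were 4 of the 30 pathway genes, or 13.3%, against 11.9% of all 10448 genes tested, so the share is near the background. They are named here after their values were seen. *Gss*, encoding glutathione synthetase, had a log2 fold change of 1.87 ± 0.57 (standard error; DESeq2, adjusted p = 0.0621), and *Gpx3*, a secreted glutathione peroxidase gene, had 1.15 ± 0.37 (adjusted p = 0.0925). *Gss* averaged 1.70 ± 0.950 TPM in controls (SD, n = 6) and 5.06 ± 2.83 TPM in mutants (SD, n = 5), and *Gpx3* 9.09 ± 3.31 TPM and 20.7 ± 10.1 TPM. *Pgd* and *G6pdx*, both of which encode NADPH-producing enzymes of the pentose phosphate pathway, had log2 fold changes of 0.48 ± 0.21 and -0.60 ± 0.30 (DESeq2, adjusted p = 0.314 and 0.421). For batch, 7 of the 30 pathway genes were called, a share near that of all genes.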

How the data were processed

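Single-embryo libraries were made by the authors with a Smart-seq2 protocol and read as single-end 75-base reads. Per the study's methods and the labels, reads were mapped to GRCm38.p6 with STAR (2.6.0c) and quantified with RSEM. For each gene the authors deposited an expected count (shared reads are divided among genes, so it need not be whole), a TPM, and effective lengths in bases. The authors' deposited comparison table (log2 fold changes and p-values) was not used.

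Expected counts were rounded and fitted with DESeq2 (1.42.0; Wald test, terms for batch and group, Benjamini-Hochberg adjustment over all genes). Calls required an adjusted p under 0.05 and a mean normalized count above 10, as in the study. Batch, the batch by group interaction, and effective length (limma 3.58.1, genes with at least 10 counts in every library) were tested over all genes. edgeR (4.0.16), limma on log2(TPM + 1) or log2(TPM + 0.1), other filters, single batches and omission of each embryo in turn were alternatives. Fits were tested on simulated data, in which the share of false calls made by DESeq2 was above its nominal level in every comparison simulated, so its adjusted p-values are too small. Symbols and positions came from GENCODE vM21, and 54079 of 54146 gene IDs matched. Promoters came from RefSeq (GRCm38.p6).

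The members, gene lists and tests were chosen with earlier results of these data known. Named genes were *Prdm10*, the members, pathway genes called or among the 3 highest in TPM, the nearest gene on each side of bound members, the 5 genes most correlated with *Prdx2*, and genes sharing 31-base sequence with a member and with a mean count above 10. Most of the many genes sharing sequence with *Prdx1*, *Prdx6* and *Sod2* are not named. Sharing genes with lower counts and pathway genes at an unadjusted p under 0.05 were named after their values were seen. No molecular identifiers were used, so PCR copies were not removed from the counts. Over 25 pairs of libraries within a group, the smallest chi-square per degree of freedom was 16.8, so none was a duplicate within sampling noise. The p-values rest on the spread between these embryos as estimated in each fit. Embryos were taken as independent, although their litters are not known. One marker gene is not reported here.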

Additional observations from a re-analysis of the deposited data

Results flagged for a closer look

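Among 22 sets of values (the 10 members and *Prdm10*, in each group), 2 held an embryo far from the others by Dixon's test at the 95% level, which chance alone does in about 1 set in 20. *Txn1* had 336 normalized counts in control replicate 1, against 113 to 173 in the other controls. *Cat* had 85.3 normalized counts in mutant replicate 1, against 0 to 17.6 in the other mutants. Control replicate 1 was the deepest control library (7195942 expected counts), and mutant replicate 1 held 8150117. Control replicate 1 also had the highest summed erythroid (32.8 TPM) and leukocyte (129 TPM) markers of any embryo, with *Lyz2* at 121 TPM and *Hba-a2* at 22.5 TPM. The part of depth or of other cells in either value was not tested.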

How the results depend on the processing

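No paired analysis was possible because the labels give no replicate numbers that tie embryos across groups. The log2 fold change of *Prdx2* relative to the median of its paralogs ran from -1.90 to -1.46 over 21 alternatives. The calls over all genes moved more. Against 151 in the DESeq2 fit, there were 35 in edgeR, 18 in limma on log2(TPM + 1), 11 in limma on log2(TPM + 0.1), 51 without a batch term, 78 in batch 1 alone, 48 in batch 2 alone and 90 to 265 with 1 embryo left out (265 without control replicate 2, and 90 and 91 without mutant replicates 2 and 5). The pathway list had 1 call in batch 1 alone (*Srxn1*), 1 in batch 2 alone (*Gpx3*) and 0 to 2 with 1 embryo left out (*Gpx3* and *Gss* without control replicate 6, *Gss* without mutant replicate 4). Batch calls over all genes fell from 2911 to 1498 in the controls alone. Batch calls among members went from 1 to 0 in edgeR and limma and ranged from 0 to 3 with 1 embryo left out (*Cat*, *Sod1* and *Txn1* without control replicate 6). The 6 interaction calls over all genes went to 0 in edgeR and limma and ranged from 0 to 22 with 1 embryo left out (22 without control replicate 1, 0 without mutant replicates 1 and 5). The *Prdm10* difference kept its direction in the 12 alternatives that kept to TPM, and on normalized counts it was -85.2, with groups that overlapped. These alternatives were added after the data were seen. The causes were not tested. *Cat* had 0 counts in 3 of 11 libraries.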
